A study of Mus musculus with 4 samples.

Results

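Of the 54532 genes counted in each library, 10 genes of cytosolic nucleic acid sensing were followed by name. They are the RNA sensors Ddx58, Ifih1 and Dhx58 with their adaptor Mavs, the DNA sensor Mb21d1 (cGAS) with its adaptor Tmem173 (STING) and the exonuclease Trex1, and the kinase and transcription factors Tbk1, Irf3 and Irf7. They were chosen by name for their known function. No value entered the rule, but earlier results of these data were known. Of the 10, 9 had enough counts to be tested, and Trex1 was listed at 0 in every library.

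The irradiated group comprised 2 RNA sequencing libraries, A and B, from tumours given 6 Gy of targeted radiation. The unirradiated group comprised 2 libraries, A and B, from tumours with no radiation. Both groups are labelled day 6 and share the C57BL/6 strain, the MMTV-PyMT transgene, whose viral promoter drives a polyoma oncogene in mammary epithelium, and the Dll1 mCherry+ tumour label. The cells are labelled primary breast cancer-associated fibroblasts, which a PDGFRa antibody served to detect in digested tumours, and the labels give neither the animals' age nor whether A and B are separate animals. The label places radiation at day 6, and the time from radiation to collection is not stated. The p-values below rest on the spread between A and B, which could be technical alone. Total counts were 15817969 and 23763830 in irradiated A and B and 17569515 and 13011489 in unirradiated A and B.

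Cells detect misplaced nucleic acid in the cytosol by parallel routes that join at one kinase. RIG-I (Ddx58) and MDA5 (Ifih1) bind foreign or unedited double-stranded RNA and signal through the mitochondrial protein MAVS, while cGAS makes the messenger cGAMP on double-stranded DNA and cGAMP activates STING. Both adaptors recruit TBK1, which phosphorylates IRF3 and IRF7, and these switch on interferon beta and its target genes. DNA that leaks from irradiated nuclei, in micronuclei for example, is a known ligand of cGAS, and several of these genes, Irf7, Ddx58, Ifih1 and Dhx58 among them, are themselves induced by interferon.

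The cell type label was set against markers. The 10 fibroblast markers summed to between 1661 and 1678 CPM (counts scaled to a common library size) in irradiated and between 500.4 and 536 CPM in unirradiated libraries, but the 10 epithelial markers summed to between 8176 and 8509 CPM in irradiated and between 8935 and 8948 CPM in unirradiated ones. Epithelial markers thus exceeded fibroblast markers in every library, against the label, and no change below can be assigned to fibroblasts. With TMM scaling and an adjusted p under 0.05, 33.9% of all 15961 tested genes were higher in the irradiated libraries and 32.5% lower. Of the fibroblast markers 8 of 10 were higher, and of the epithelial ones 3 of 10 were higher, near the share of all genes, and 5 lower. The 12 macrophage markers summed to between 825 and 827 CPM in irradiated and between 328 and 329 CPM in unirradiated libraries, and the 6 endothelial markers to between 133 and 144 CPM against between 54.6 and 57.6 CPM. Of these, 11 of 12 and 6 of 6 were higher. The 8 dendritic cell markers summed to between 37.2 and 38.7 CPM in irradiated and between 19.5 and 21.2 CPM in unirradiated libraries. Most of this sum was Itgax, with means of 27.7 and 13.1 CPM. Of the 3 tested, Itgax and Zbtb46 were higher and Ccr7 was lower (log2 fold change -2.10). The 9 T and NK cell markers summed to between 4.08 and 4.21 CPM in irradiated and between 8.41 and 9.96 CPM in unirradiated libraries, and the 4 B cell markers to between 1.92 and 2.70 CPM against between 7.12 and 8.77 CPM, with Ms4a1 at 0 counts in both irradiated libraries. Of the tested ones, 3 of 5 T and NK cell markers and 3 of 3 B cell markers were lower. The NK cell markers Ncr1 and Klrb1c had too few counts to be tested. The part of these shifts in the results was not tested. In such bulk samples, fewer cells of a type and less RNA per cell cannot be told apart.

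Promoter windows, 250 bases before to 50 after each annotated start (RefSeq, GRCm38.p6), were found for 8 of the 10 genes. They were searched on both strands for a word of the interferon-stimulated response element, GAAANNGAA, which interferon regulatory factors bind, and for a word bound by STAT factors, TTCNNNGAA. The first word occurred in the windows of Ddx58 and Ifih1, and in 9.76% of the 27025 genes with a window. The second occurred in none of the 8, and in 9.55% of all genes. Among lists of related genes used further on, GAAANNGAA occurred in 5 of 7 genes of the PKR and OAS list, several of them similar Oas1 genes. It occurred in 5 of 8 early IRF3 target genes and in 11 of 19 interferon genes, all of these alpha genes or Ifnab. Shares were lower in 3 of 13 RNA sensor cofactors, 3 of 13 adaptors and kinases and 2 of 10 endosomal Toll-like receptor genes. The word was in 1 of 7 clearance genes, 1 of 5 other interferon regulatory factors and 1 of 7 receptor, kinase and ISGF3 genes. It was in no window of 14 other DNA sensing genes. The windows of Ddx58 (chr4:40239776-40240075, minus strand), of Ifih1 (chr2:62646206-62646505, minus strand) and of Irf7 (chr7:141266375-141266674, minus strand), the largest change among the 10, are shown because they contrast the genes with and without the word. Capitals mark GAAANNGAA or its reverse complement.
Ddx58: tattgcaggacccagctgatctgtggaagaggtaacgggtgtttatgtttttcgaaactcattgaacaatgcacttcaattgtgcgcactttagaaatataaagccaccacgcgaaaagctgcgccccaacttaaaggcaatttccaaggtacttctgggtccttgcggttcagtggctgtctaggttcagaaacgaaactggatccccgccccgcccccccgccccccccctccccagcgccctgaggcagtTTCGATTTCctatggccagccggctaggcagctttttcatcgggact
Ifih1: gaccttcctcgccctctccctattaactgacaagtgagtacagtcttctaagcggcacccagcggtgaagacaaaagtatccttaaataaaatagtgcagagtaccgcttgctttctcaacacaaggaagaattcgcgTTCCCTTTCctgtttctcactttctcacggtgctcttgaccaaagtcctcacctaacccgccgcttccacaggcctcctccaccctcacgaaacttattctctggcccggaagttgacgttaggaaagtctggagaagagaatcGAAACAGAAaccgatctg
Irf7: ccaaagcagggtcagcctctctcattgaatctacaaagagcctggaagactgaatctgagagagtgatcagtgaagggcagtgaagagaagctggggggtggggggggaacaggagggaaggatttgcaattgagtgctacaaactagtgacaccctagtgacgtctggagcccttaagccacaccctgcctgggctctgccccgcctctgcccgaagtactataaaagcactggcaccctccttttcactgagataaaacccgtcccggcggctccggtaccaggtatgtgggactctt
The word lay 3 to 11 bases after the start of Ddx58, and in Ifih1 from 112 to 104 bases before the start and again 32 to 40 bases after it. A match of letters is a description of these windows and shows no binding.

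The comparison asked how transcripts of these genes differed between irradiated and unirradiated libraries. Levels are CPM scaled by TMM, a scaling that sets the bulk of genes equal between libraries, and changes are log2 fold changes of irradiated over unirradiated libraries with a standard error (SE), called at an adjusted p under 0.05 by edgeR's quasi-likelihood test. Of the 9 tested genes, 6 were lower and 1 was higher in the irradiated libraries, where 32.5% of all 15961 tested genes were lower and 33.9% higher. The CPM of the groups did not overlap for any of the 9, as for 82.5% of all tested genes. The median log2 fold change of the 9 was -0.26, against -0.0042 for all tested genes. Only Irf7 passed a test against a change of 1.5-fold (edgeR adjusted p = 1.64e-18).

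Scaling decides several of these directions. With CPM on total counts the median gene lay 0.14 higher on the log2 scale than with TMM, and with totals per gene length, as in TPM, 0.51 higher. All tested genes then split into 6700 higher (42%) and 4019 lower (25.2%) with total counts and 9890 higher (62%) and 1773 lower (11.1%) with TPM totals, against 5409 and 5184 with TMM. Of the 9 genes, 2 were called higher and 4 lower with total counts, and 5 higher and 2 lower with TPM totals. These scalings differ by a factor per library, which shifts all genes by nearly the same amount. Measured from the median gene of each scaling, the 9 changes were therefore nearly identical, as with Ddx58 at -0.26 in all 3. This follows from the arithmetic and is no separate support. The short gene Gm23935 held 4.92% and 5.43% of the TPM total in irradiated A and B, against 11.6% and 10.4% in unirradiated A and B. Other genes with large shares fell as well. The share of mt-Co1 was 2.01% and 1.87% in irradiated A and B, against 4.73% and 4.92% in unirradiated A and B. For mt-Rnr2 the shares were 1.16% and 1.14% against 4.21% and 4.29%. The part of each gene in the shift was not computed.

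**Figure D1:**
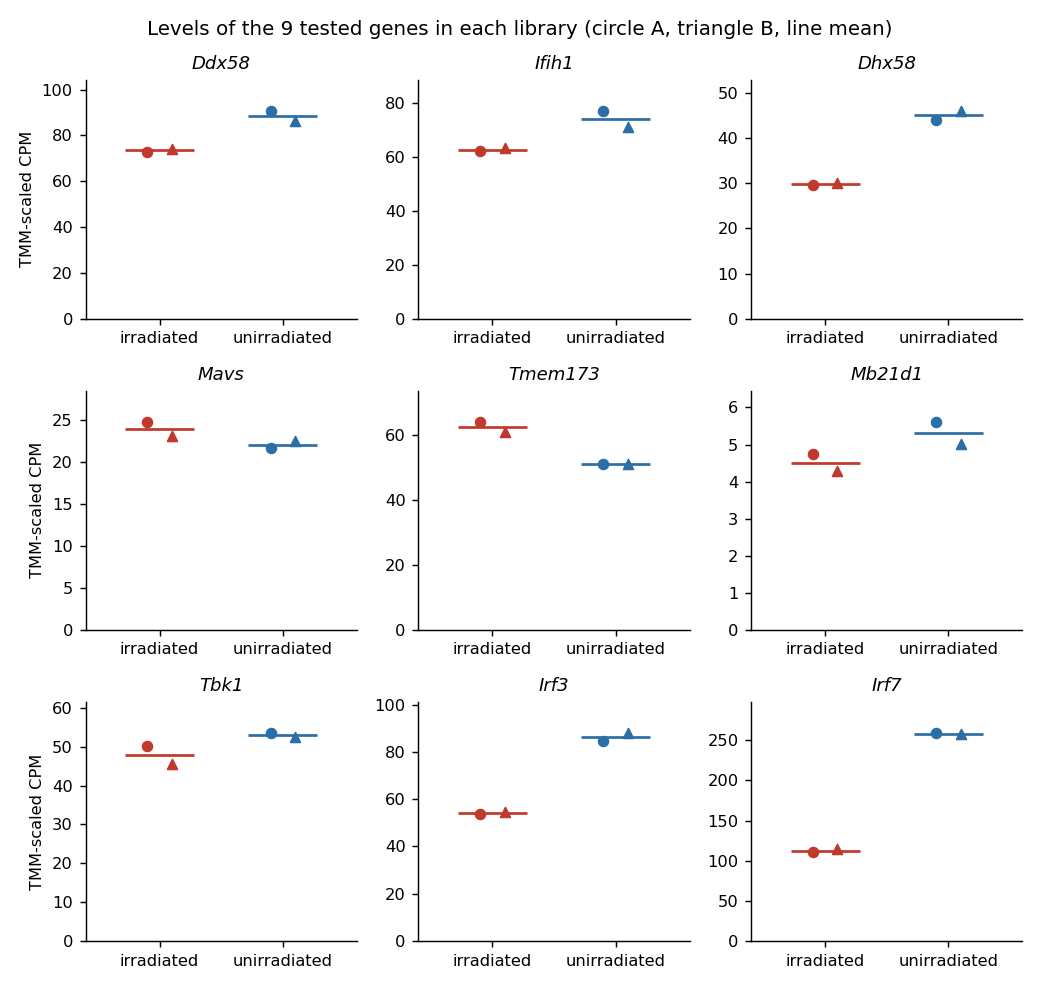
TMM-scaled CPM (vertical axis, from 0) of the 9 tested genes in irradiated (red) and unirradiated (blue) libraries, circle A, triangle B, line the mean of the group. Irf7 shows the widest gap, with irradiated libraries at 111 and 114 CPM and unirradiated ones at 259 and 258 CPM.

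Among the transcription factors at the end of the route, Irf7 stood out. Irf7, the interferon-inducible factor that amplifies the interferon alpha response, lies on chromosome 7 at 141262706 to 141266481 (mm10). It was at 111 and 114 CPM in irradiated A and B, against 259 and 258 CPM in unirradiated A and B. Both irradiated libraries were far below both unirradiated ones, and the libraries of a group were close to each other. The mean was 112 ± 2.31 CPM in irradiated and 258 ± 0.846 CPM in unirradiated libraries (SD, n = 2 each), 0.435-fold (log2 fold change -1.20, SE 0.0490, edgeR adjusted p = 9.86e-32). It was lower under each of the 14 alternatives tried, least with TPM totals (-0.69).

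Irf3, the constitutively present factor that acts first after TBK1, fell less. Irf3 (chromosome 7, 44997648 to 45002848) was at 53.6 and 54.7 CPM in irradiated A and B, against 84.7 and 87.9 CPM in unirradiated A and B. The groups were apart and each was tight (log2 fold change -0.67, SE 0.0635, edgeR adjusted p = 1.82e-14, -0.16 with TPM totals). Irf3 shares 88 exonic bases with Bcl2l12 and Irf7 45 with Phrf1, both on the other strand, where reads cannot be told apart, and 97.4% and 98.8% of their exonic bases belong to no other gene.

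The count ratio within a library does not depend on the scaling between libraries, but it is not corrected for gene length. For Irf7 over Irf3 it was 2.06 and 2.08 in the irradiated libraries, against 3.06 and 2.93 in the unirradiated ones. The groups did not overlap, so Irf7 was lower relative to Irf3 in both irradiated libraries. No test was run on the ratios here or below, and how often ratios of other gene pairs overlap was not computed.

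The RNA sensors were all lower with TMM, by different amounts. Ddx58, which encodes RIG-I, a helicase that recognises RNA with a triphosphate end (chromosome 4, 40203773 to 40239828), was at 72.9 and 74.2 CPM in irradiated A and B, against 90.7 and 86.2 CPM in unirradiated A and B. Its groups did not overlap, though the gap was small. The log2 fold change was -0.27 (SE 0.0603, edgeR adjusted p = 9.03e-05), and turned to 0.24 with TPM totals.

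Ifih1, which encodes MDA5, the sensor of long double-stranded RNA (chromosome 2, 62595798 to 62646255), was at 62.1 and 63.2 CPM in irradiated A and B, against 77.2 and 71.1 CPM in unirradiated A and B. Unirradiated B lay nearest to the irradiated libraries. The log2 fold change was -0.25 (SE 0.0643, edgeR adjusted p = 6.55e-04), and it turned to 0.26 with TPM totals. The call was lost without unirradiated A (-0.18, edgeR adjusted p = 0.0600), with DESeq2 (adjusted p = 0.0645) and with total counts (edgeR adjusted p = 0.124).

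Dhx58, which encodes LGP2, a relative without signalling domains that tunes the other sensors (chromosome 11, 100694884 to 100704271), was at 29.7 and 30.0 CPM in irradiated A and B, against 44.1 and 46.0 CPM in unirradiated A and B. The groups were well apart. Dhx58 shares 141 exonic bases with the antisense gene Dhx58os, which had at most 8 counts. The log2 fold change was -0.59 (SE 0.0804, edgeR adjusted p = 2.85e-09), and with TPM totals it was -0.08 and not called.

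Within libraries, Ddx58 and Ifih1 kept almost the same proportion. The count of Ddx58 over that of Ifih1 was 1.17 in both irradiated libraries, against 1.18 and 1.21 in the unirradiated ones, so irradiated libraries were barely below unirradiated A. Dhx58 over Ddx58 was 0.408 and 0.405 in irradiated libraries, against 0.486 and 0.534 in unirradiated ones. By these counts Dhx58 was lower relative to both of the other RNA sensors in each irradiated library. Its ratios to Ifih1 were 0.478 and 0.475 against 0.571 and 0.647. Dhx58 is shorter (3272 bases) than Ddx58 (7050) and Ifih1 (8165), and the ratios were not computed after the gene-length correction.

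Mavs, the mitochondrial adaptor of RIG-I and MDA5 (chromosome 2, 131234063 to 131248025), was at 24.7 and 23.1 CPM in irradiated A and B, against 21.7 and 22.4 CPM in unirradiated A and B. The groups were close beside each other without overlapping. Its log2 fold change of 0.11 (SE 0.10, 95% interval -0.09 to 0.31, edgeR adjusted p = 0.319) did not pass with TMM, but it was called higher with total counts (0.25) and with TPM totals (0.62).

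**Figure D2:**
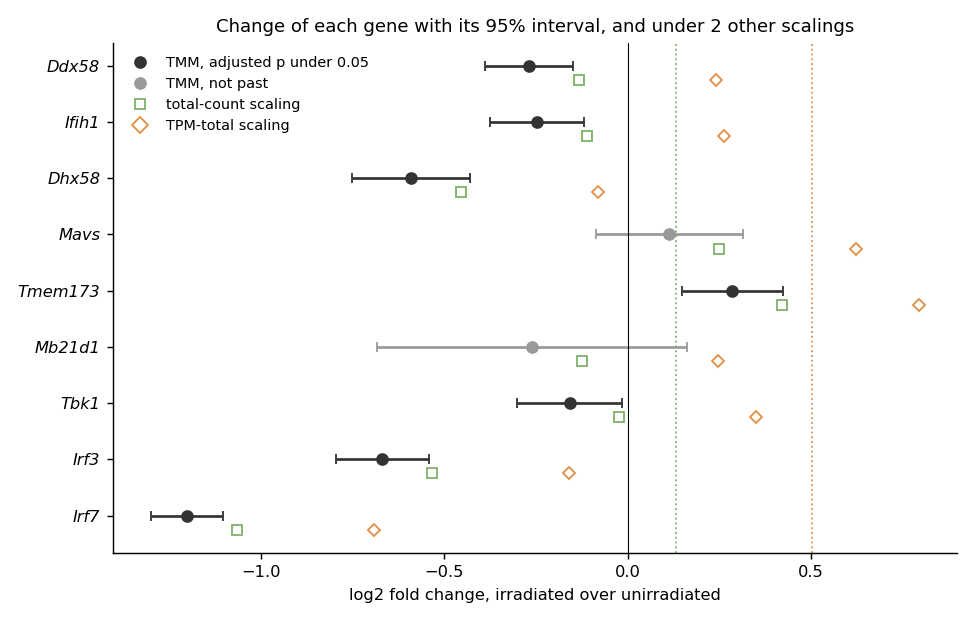
Log2 fold change (horizontal axis) of each of the 9 tested genes with its 95% interval under TMM (filled circles, grey where not called), and without interval under total-count scaling (squares) and TPM totals (diamonds), whose median genes are the dotted lines at 0.13 and 0.50. Under TPM totals Ddx58, Ifih1 and Tbk1 lie right of 0, while Irf7 lies left of 0 under all 3 and Tmem173 right of 0 under all 3.

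Of the DNA-sensing arm, the adaptor was the one gene called higher. Tmem173, which encodes STING, the cGAMP receptor of the endoplasmic reticulum (chromosome 18, 35733678 to 35740554), was at 64.1 and 60.9 CPM in irradiated A and B, against 51.1 and 51.3 CPM in unirradiated A and B. Both irradiated libraries were above both unirradiated ones. The log2 fold change was 0.29 (SE 0.0685, edgeR adjusted p = 2.33e-04), and it was higher under each of the 14 alternatives tried, up to 0.79 with TPM totals.

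Mb21d1, which encodes the enzyme cGAS (chromosome 9, 78430526 to 78443237), was the least abundant of the tested genes. It was at 4.75 and 4.28 CPM in irradiated A and B, against 5.61 and 5.02 CPM in unirradiated A and B, from 79 and 106 counts and from 94 and 62 counts. The groups did not overlap, but the counts were few. The log2 fold change of -0.26 (SE 0.211, edgeR adjusted p = 0.277) had a 95% interval of -0.68 to 0.16, so its direction was not detectable at this depth, and it was at 0.25 with TPM totals.

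Tbk1, the kinase shared by the RNA and DNA routes (chromosome 10, 121546455 to 121586787), was at 50.1 and 45.6 CPM in irradiated A and B, against 53.5 and 52.6 CPM in unirradiated A and B. Irradiated A lay nearer to unirradiated B than to irradiated B. Its call was marginal (log2 fold change -0.16, SE 0.0721, edgeR adjusted p = 0.0481), was lost in 8 of 14 alternatives and turned to 0.35 with TPM totals. Without irradiated B the change was -0.07 (edgeR adjusted p = 0.506), without unirradiated A -0.14 (edgeR adjusted p = 0.182) and without unirradiated B -0.17 (edgeR adjusted p = 0.0955).

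Ratios within libraries set STING apart from its kinase and its target factor. Tmem173 over Tbk1 was 1.28 and 1.34 in irradiated libraries, against 0.954 and 0.975 in unirradiated ones. Tmem173 over Irf3 was 1.20 and 1.11 in irradiated libraries, against 0.603 and 0.583 in unirradiated ones, and no ratio of one group reached those of the other. Macrophage and endothelial markers were higher in the same libraries, and their part in this was not tested.

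**Figure D3:**
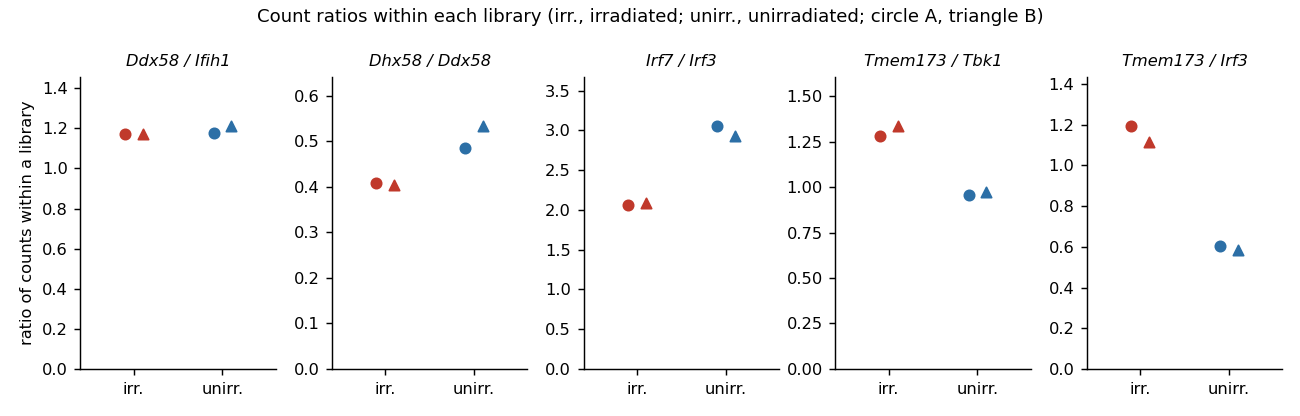
Ratio of the counts of 2 genes within each library (vertical axis, from 0), irradiated libraries in red and unirradiated ones in blue, circle A, triangle B. Ddx58 over Ifih1 is nearly level at 1.17 in irradiated and 1.18 and 1.21 in unirradiated libraries, the smallest gap of the 5 ratios. No ratio overlaps between the groups, and how often those of other gene pairs do was not computed.

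Trex1, the exonuclease that clears cytosolic DNA before cGAS can bind it (chromosome 9, 109057933 to 109059734), had 0 counts in all 4 libraries. For a gene whose reads can be counted, a count of 0 allows up to 3 counts. That is between 0.126 and 0.231 CPM of the total counts by library. In GENCODE M21, all 1147 exonic bases of Trex1 lie inside exons of Atrip on the same strand, so no base is its own. Atrip, a partner of the checkpoint kinase ATR, had 310 and 519 counts in irradiated A and B and 350 and 235 in unirradiated A and B. Of 177 protein-coding genes without an exonic base of their own, 84.8% were at 0 in all 4 libraries, against 17.2% of the 21851 other protein-coding genes. How the counting treated reads shared by both genes is not given. The 0 therefore cannot be read as absence of Trex1 RNA, nor the limit of 3 counts as a bound on it.

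**Figure D4:**
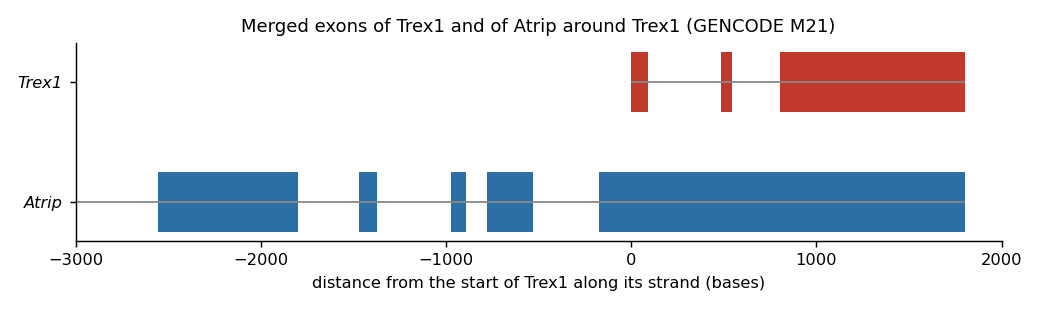
Merged exons of Trex1 (red) and of Atrip (blue) in GENCODE M21 against the distance in bases from the start of Trex1 along its strand. The last exon of Atrip, 1976 bases long, spans all 3 exons of Trex1.

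Between genes, levels were compared per kilobase of the gene length in the files. In irradiated libraries the order was Irf7 (29.8 ± 0.612 CPM per kilobase), Tmem173 (27.2 ± 0.977), Irf3 (15.7 ± 0.220), Tbk1 (12.2 ± 0.821), Ddx58 (10.4 ± 0.128), Dhx58 (9.13 ± 0.0672), Ifih1 (7.68 ± 0.0955), Mavs (7.14 ± 0.346) and Mb21d1 (1.09 ± 0.0812; SD, n = 2 each). Each gene differed from the next in this order by more than the SD of either. This SD covers only the spread between A and B and not error in the gene lengths. In unirradiated libraries Irf7 led with 68.4 ± 0.224 CPM per kilobase, followed by Irf3 (25.1 ± 0.664), Tmem173 (22.2 ± 0.0705), Dhx58 (13.8 ± 0.421), Tbk1 (13.6 ± 0.167), Ddx58 (12.6 ± 0.450), Ifih1 (9.08 ± 0.526), Mavs (6.59 ± 0.160) and Mb21d1 (1.29 ± 0.101). There Dhx58 and Tbk1 differed by less than the SD of Dhx58. The length of Irf7 in the files, 3776 bases, spans the gene from end to end, which is longer than its spliced transcripts and lowers its level on this scale. The length of Irf3, 3442 bases, likewise merges the exons of 13 transcripts. For Tmem173 the files give 2302 bases and GENCODE M21 gives 2741 exonic bases. The order between genes, Tmem173 and Irf3 among them, may therefore change with the lengths used.

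Other genes of the pathway were taken from lists by role. Their counts of called genes stand beside the shares of all tested genes. These were 33.9% higher and 32.5% lower with TMM, and 62% and 11.1% with TPM totals. With upper-quartile scaling 4986 of all genes were higher and 5569 lower, against 5409 and 5184 with TMM. The numbers were 4493 and 3424 with DESeq2, 5134 and 4961 after the gene-length correction, and 5418 and 5200 with the replicate block. Of 14 cofactors and regulators of the RNA sensors, 10 were higher and 3 lower (median log2 fold change 0.27). The ubiquitin ligase Rnf125, which marks RIG-I for breakdown, was at 9.95 ± 0.130 CPM in irradiated and 4.49 ± 0.522 CPM in unirradiated libraries (log2 fold change 1.17). Zcchc3, an RNA-binding cofactor of RIG-I and cGAS, rose as well (0.65), a call lost without irradiated B (0.49) and with DESeq2. The helicase Ddx60 fell (15.8 ± 1.22 against 27.8 ± 0.459 CPM, -0.83). Rnf135, a ligase that activates RIG-I, fell with TMM (-0.78) and was not called with TPM totals. The third lower gene, named after its value was seen, was Nlrx1, a mitochondrial inhibitor of MAVS (-0.50).

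Of 19 genes for other DNA sensors, STING traffic and cGAMP handling, 10 were higher and 3 lower (median 0.31). With TPM totals 15 were higher, and with upper-quartile scaling 5 were lower. Ifi204, a DNA sensor abundant in macrophages, was at 11.4 ± 0.588 CPM in irradiated and 4.12 ± 0.00707 CPM in unirradiated libraries (log2 fold change 1.46). Macrophage markers were higher in the same libraries, and their part was not tested. Enpp1, the enzyme that degrades extracellular cGAMP, was at 78.1 ± 1.70 CPM in irradiated and 40.9 ± 1.51 CPM in unirradiated libraries (0.93). The ligases Trim32 and Trim56, which ubiquitinate STING, rose by 0.76 and 0.63. The 3 lower genes, named after their values were seen, were Rnf5, a ligase that marks STING for breakdown (-0.59), the Z-nucleic acid sensor Zbp1 (-0.55) and Pqbp1 (-0.36).

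Of 15 adaptors and kinases between sensor and IRF, 6 were higher, near the share of all genes, and 2 lower with TMM (median 0.21). This balance depended on the processing. With TPM totals 14 were higher, where 62% of all genes were. After the gene-length correction 2 were higher and 3 lower, where 5134 of all genes were higher and 4961 lower. With DESeq2 1 was lower, where 3424 of all genes were. Optn, a TBK1-binding autophagy receptor, was at 42.3 ± 0.418 CPM in irradiated and 27.0 ± 1.40 CPM in unirradiated libraries (log2 fold change 0.65). The TBK1-binding adaptor gene Tank was also higher (0.35). Ikbkb, a kinase of the NF-kB branch, and the adaptor gene Tradd were lower with TMM (-0.33 and -0.31) but at 0.18 and 0.20 with TPM totals. The call of Tradd was also lost with DESeq2 and after the gene-length correction (-0.06).

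Nucleic acid clearance and editing went mostly the other way with TMM, with 6 of 9 genes lower and 1 higher (median -0.32). With TPM totals, however, 4 were higher, where 62% of all genes were. All 3 subunit genes of RNase H2, which removes RNA from DNA, were lower with TMM and not called with TPM totals. Rnaseh2c was at 36.2 ± 3.42 CPM in irradiated and 57.8 ± 4.01 CPM in unirradiated libraries (log2 fold change -0.66). Rnaseh2b changed by -0.57 and Rnaseh2a by -0.46, the last at 0.04 with TPM totals. Dnase2a, the lysosomal DNase, was lower with TMM (-0.54) and not called with TPM totals. The single higher gene was Samhd1, a dNTP hydrolase (0.39), named after its value was seen.

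In the PKR and OAS list 9 of 10 genes were lower (median -0.90), and 6 were lower with TPM totals. The genes for 2',5'-oligoadenylate synthetases, sensors of double-stranded RNA, were led by Oas2 at 33.7 ± 1.36 CPM in irradiated and 172 ± 0.486 CPM in unirradiated libraries (log2 fold change -2.36). Oas1g and Oas1b followed at -1.52 and -1.45. The Oas1 genes are near copies of each other in the mouse, so their separate values are uncertain.

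Of 12 genes of the endosomal Toll-like receptor route, 4 were higher, near the share of all genes (33.9%), and 2 lower (median 0.18). With TPM totals 11 were higher, where 62% of all genes were, and without unirradiated B 1 was lower. Tlr7, a receptor for single-stranded RNA found in myeloid cells, was at 2.98 ± 0.385 CPM in irradiated and 0.941 ± 0.187 CPM in unirradiated libraries (log2 fold change 1.60). Tlr3, a receptor for double-stranded RNA, rose by 0.30, a call lost without unirradiated A (0.19), and its adaptor Ticam1 by 0.54. Tlr8, a relative of Tlr7 named after its value was seen, had 20 and 43 counts in irradiated libraries, against 7 and 1 in unirradiated ones (2.44). Irak1, a kinase downstream of MyD88, fell (98.8 ± 0.166 against 156 ± 5.54 CPM, -0.66).

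Among 6 other interferon regulatory factors, 2 were higher and 2 lower, near the shares of all genes, and with TPM totals 5 were higher. Irf5, a factor of myeloid cells, was at 7.81 ± 0.0928 CPM in irradiated and 4.93 ± 0.111 CPM in unirradiated libraries (log2 fold change 0.66). Irf1 was lower with TMM (-0.19) and at 0.32 with TPM totals. Irf4, a lymphoid factor at 0.703 ± 0.367 CPM in irradiated and 1.52 ± 0.373 CPM in unirradiated libraries, was lower (-1.17), a call lost without unirradiated B (-0.93), without irradiated B (-0.60), with DESeq2 and with TPM totals.

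**Figure D5:**
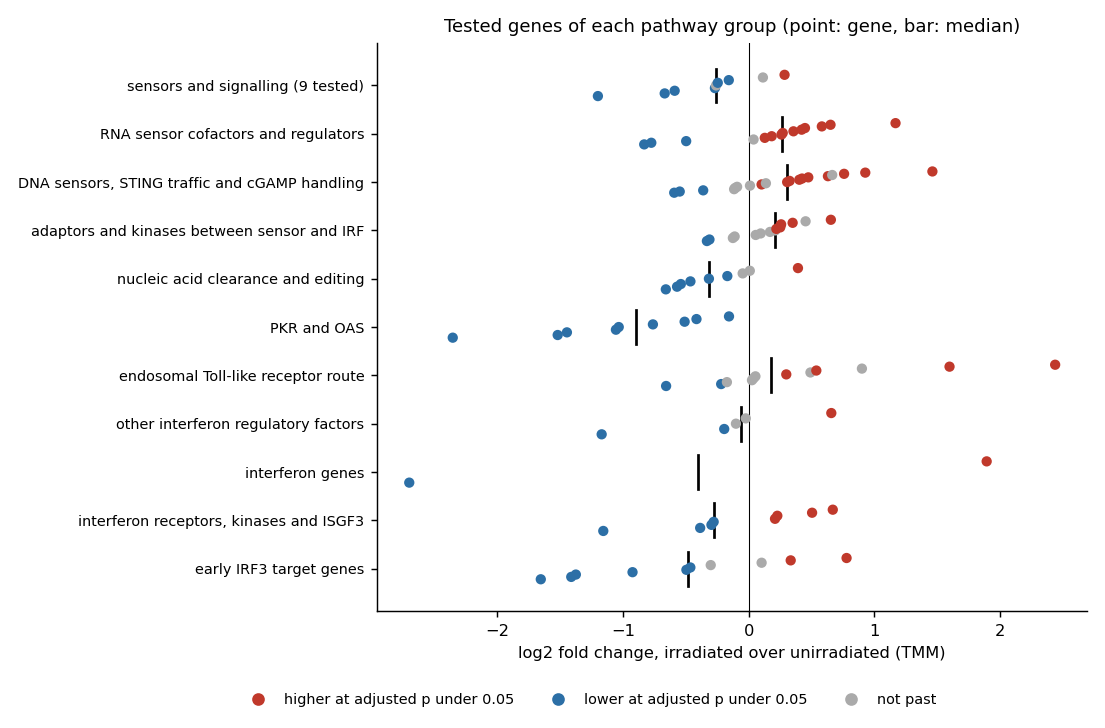
Log2 fold change (horizontal axis, TMM) of each tested gene in 11 groups of the pathway, red where higher, blue where lower and grey where not called, with a black bar at the median. In the PKR and OAS group the drawn points are all left of 0, down to -2.36 for Oas2. Genes not reported here count in the medians but are not drawn, and with TPM totals the points would lie about 0.51 further right.

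The interferon genes themselves were at the edge of detection. Ifnb1, the interferon beta gene that IRF3 and IRF7 induce, had 35 and 45 counts in irradiated A and B, against 10 and 5 counts in unirradiated A and B. Both irradiated libraries were higher (1.96 ± 0.204 against 0.501 ± 0.136 CPM, log2 fold change 1.89, SE 0.456, edgeR adjusted p = 2.43e-04), and the call held in each of the 14 alternatives tried. Ifng, interferon gamma of T and NK cells, had 2 and 3 counts in irradiated libraries, against 13 and 11 in unirradiated ones. In the same libraries 3 of 5 tested T and NK cell markers were lower. Of the 12 listed interferon alpha genes and Ifnab, 7 had no count in any library, Ifna12 had 3 counts in irradiated B, Ifnab 1 count in irradiated A against 5 and 5 in unirradiated libraries, and the others (Ifna2, Ifna4, Ifna5 and Ifna14) at most 2 in 1 unirradiated library. Ifne, Ifnk, Ifnl2 and Ifnl3 had 1 count each, in irradiated libraries.

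Transcripts of interferon beta and of the genes for its signalling did not all move the same way. Ifnar1, the receptor chain, was at 58.1 ± 1.43 CPM in irradiated and 41.1 ± 2.76 CPM in unirradiated libraries (log2 fold change 0.50), and the kinase gene Jak1 rose by 0.67. Stat2, a subunit of the factor ISGF3, fell (59.6 ± 2.82 against 132 ± 2.90 CPM, -1.16). In all, 4 of 9 genes of receptors, kinases and ISGF3 were higher and 5 lower with TMM, against 33.9% and 32.5% of all genes. Of these 9, 2 were higher without unirradiated A, 2 were higher and 3 lower with DESeq2, and 1 was lower with TPM totals. Of 10 early IRF3 target genes, 6 were lower and 2 higher (median -0.48), and 4 were lower with TPM totals. Usp18, Isg15, Ifit3 and Rsad2 were lower by 1.65, 1.41, 1.38 and 0.92 on the log2 scale. The 2 higher genes, named after their values were seen, were the chemokine gene Cxcl10 (0.78) and the exonuclease gene Isg20 (0.33), and 1 of the 10 was higher with the replicate block, with upper-quartile scaling and with DESeq2. Of the tested markers, 3 of 5 for T and NK cells and 3 of 3 for B cells were lower in the same libraries. Macrophage markers were higher there, and the part of these shifts in the changes was not tested.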

How the data were processed

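Poly(A) RNA was sequenced from all 4 libraries, and per the labels' protocols the library kit keeps no strand. The submitters' processing notes name the mm10 build, STAR 2.5, HTSeq 0.6.1 and DESeq2, and the settings are not known here. Each deposited file gives raw counts per gene as whole numbers, with a length in bases. GENCODE M21 holds 54495 of the gene identifiers, 98.3% of them at the same coordinates.

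Counts were tested with edgeR 4.0.16 in R 4.3.3 (filterByExpr, TMM, quasi-likelihood F-test, Benjamini-Hochberg over 15961 genes, threshold 0.05). The SE follows from the F statistic and the log2 fold change. The fit has 2 residual and 60.0 pooled prior degrees of freedom. The code was tested on simulated data. A and B of a group differed by 2.11 and 2.14 times the counting noise (median chi-square), so all libraries were kept. No batch is labelled.

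The genes and lists were chosen with earlier results of these data known. From each list, up to 4 called genes averaging 1 CPM or more are named in order of change, besides all interferon genes with a count, and others are marked as named after their values were seen. A few listed genes are not reported here and count only in the list totals.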

Additional observations from a re-analysis of the deposited data

How the results depend on the processing

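The fit was repeated without each library, with the A and B letters as a replicate block, with DESeq2 or edgeR's legacy dispersion, with upper-quartile or RLE scaling, after a gene-length correction, and with no filter or a stricter one. In these 12 alternatives, Ddx58, Dhx58, Tmem173, Irf3 and Irf7 kept direction and call, and Mavs and Mb21d1 stayed uncalled. The call of Ifih1 was lost in 2 and that of Tbk1 in 7, including edgeR's legacy dispersion (adjusted p = 0.0538) and no filter (adjusted p = 0.370). With DESeq2 3424 genes were lower. Against a 1.5-fold change 2032 genes were higher and 1754 lower, among them 0 and 1 of the 9. Leaving out each library left between 4935 and 5188 genes higher and between 4457 and 4728 lower, with between 4 and 6 of the 9 lower. The letters A and B do not state pairs, and deviations from the group means correlated at 0.012. The replicate block gave 5418 higher and 5200 lower genes, and 5 of the 9 lower (Tbk1 lost, adjusted p = 0.0527).

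Total-count and TPM-total scaling were added after the data were seen. Total counts called 2 of the 9 higher. TPM totals called 9890 genes higher and 1773 lower, and 5 and 2 of the 9. There Ddx58 (0.24), Ifih1 (0.26), Tbk1 (0.35), Ikbkb (0.18), Tradd (0.20), Rnaseh2a (0.044) and Irf1 (0.32) turned positive, Tradd and Rnaseh2a without a call. Mb21d1 (0.25), uncalled in both, turned as well. These turns follow from the shift of the median gene by 0.51. Depth limits Mb21d1, Ifnb1 and the other interferon genes.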
